A study of Mus musculus with 10 samples.

Results

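The Rel family genes encode the subunits of the transcription factor NF-kB, and their RNA was followed through a time course of TNF-alpha in mouse samples of the wild type (WT) and of a Sirt6 knockout (KO). The members are the probes annotated to exactly 1 of Rela, Relb, Rel, Nfkb1 and Nfkb2. Of these 5 genes 4 had a probe, Rela, Relb, Rel and Nfkb2, with 1 probe each, so the probe and the gene mean are the same value. These are 4 of 38784 spots and 4 of 14365 genes tested. Nfkb1 had no such probe in the annotation used here and was not analysed. The series holds 10 two-colour arrays, each setting 1 sample (Cy5) against universal mouse reference RNA (Cy3). Each genotype had 2 arrays, a and b, without treatment (0 h) and 1 array after 1.5, 6 and 24 h of TNF-alpha. The strain, the cell type, the dose and whether a and b were separate cultures are not given in the sources used here, so errors and p-values cover the scatter among these samples alone, and that scatter may be technical.

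NF-kB is a dimer of Rel family proteins that all share a DNA-binding Rel homology region. Rela, Relb and Rel also carry a transactivation domain, whereas Nfkb1 and Nfkb2 encode precursors that are processed to the DNA-binding subunits p50 and p52. In resting cells inhibitors of the IkB family hold the dimers in the cytoplasm. TNF-alpha activates the IKK kinase, the inhibitors are degraded and the dimers enter the nucleus, where Nfkb2, Relb and Rel are themselves known among the target genes. Sirt6 encodes a chromatin-bound deacetylase that is known to bind the RelA protein, and the arrays ask how these genes answer TNF-alpha with and without it.

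The promoter windows are shown because Nfkb2 and Rel are known as NF-kB targets and their windows hold matches to the kB consensus, while the Rela window is shown beside them. Windows of 300 bases (250 before to 50 after an annotated start, RefSeq, GRCm38.p6) were found for 3 of the 5 genes, Nfkb2 with 3 starts and Rel and Rela with 1 each. They are printed 5′ to 3′ on the strand of the gene. The annotated Nfkb2 gene begins at base 46300994, upstream of its windows, and the Rela gene at base 5637442, within its window. Capitals mark matches on either strand to the kB consensus in its broad form.
Nfkb2, first start (chr19:46304487-46304786, plus strand): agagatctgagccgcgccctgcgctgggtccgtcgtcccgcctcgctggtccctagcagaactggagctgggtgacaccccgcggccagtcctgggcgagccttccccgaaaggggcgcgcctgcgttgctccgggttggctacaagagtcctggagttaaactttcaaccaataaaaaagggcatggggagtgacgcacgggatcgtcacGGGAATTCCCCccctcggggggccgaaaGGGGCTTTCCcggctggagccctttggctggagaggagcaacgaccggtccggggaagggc
Nfkb2, second start (chr19:46305445-46305744, plus strand): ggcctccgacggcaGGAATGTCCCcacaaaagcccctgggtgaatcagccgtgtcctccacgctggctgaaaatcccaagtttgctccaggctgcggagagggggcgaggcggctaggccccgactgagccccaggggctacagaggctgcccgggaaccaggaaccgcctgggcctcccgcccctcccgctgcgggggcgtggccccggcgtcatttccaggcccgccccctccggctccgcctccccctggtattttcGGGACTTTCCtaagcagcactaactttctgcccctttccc
Rel (chr11:23770920-23771219, minus strand): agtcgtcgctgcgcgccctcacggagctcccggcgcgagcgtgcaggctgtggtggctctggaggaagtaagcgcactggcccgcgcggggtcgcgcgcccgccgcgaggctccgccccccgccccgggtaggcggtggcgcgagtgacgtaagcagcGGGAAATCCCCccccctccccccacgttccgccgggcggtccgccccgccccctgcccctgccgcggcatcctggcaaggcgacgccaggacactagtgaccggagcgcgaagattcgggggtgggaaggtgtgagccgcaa
Rela (chr19:5637291-5637590, plus strand): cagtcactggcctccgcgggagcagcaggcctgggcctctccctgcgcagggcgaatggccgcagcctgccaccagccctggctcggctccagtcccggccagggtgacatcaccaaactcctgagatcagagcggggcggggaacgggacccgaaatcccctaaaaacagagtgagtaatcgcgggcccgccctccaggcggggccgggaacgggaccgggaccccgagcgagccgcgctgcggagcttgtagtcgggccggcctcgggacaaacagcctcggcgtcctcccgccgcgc
The first Nfkb2 window held GGGAATTCCC at bases -39 to -30 from the start, overlapped on the other strand by a match shifted by 1 base, and GGGGCTTTCC at -11 to -2. The second held GGGACTTTCC at 11 to 20 and, on the other strand, a match at -236 to -227. The third Nfkb2 window overlaps the second and holds the same GGGACTTTCC, so it is not printed. The Rel window held GGGAAATCCC at -92 to -83, with a match shifted by 1 base on the other strand, and the Rela window held no match of this form. Among all 32851 RefSeq windows 8.46% held at least 1 match of this form, 5.8% held the strict form of the consensus, and 1.22% held the broad form at 2 or more positions, shifted matches included. A looser form, GGG and CC with any 5 bases between them on either strand, was in 50.8% of windows and in each of those printed, with Rela holding it at -218 to -208, as a shifted pair, and at -66 to -57. So the members differ in the broad form and not in the looser one. The forms of the motif were chosen with the letters of these windows in view. A match is a description and not a shown binding site.

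The deposited value is 1 log ratio per spot, read here as log2 of the sample over the reference. Neither base nor direction is stated in the labels; with another base the fold changes would differ, and with the opposite direction every sign would turn. The median over genes was subtracted on each array, so a value of 0 is the array's median gene, and values of different probes cannot be ranked against each other as RNA levels. Fewer cells of a type and less RNA per cell cannot be told apart in such samples. Array medians over all spots ran from -0.255 to -0.004, and arrays held 36822 to 38556 values. A pair of arrays needs care, KO 0 h array b and the array labelled KO at 24 h. The first had the fewest values and the widest spread (SD 0.983 over spots, against 0.551 to 0.833 on the others). On the second Sirt6, the deleted gene, was at -0.05, within the WT range of -0.16 to 0.07, whereas the other 4 KO arrays lay between -1.16 and -0.76. These are means of 2 probes that differ. On 1 probe KO 24 h was at -0.11 and KO 6 h at -0.36, both within the WT range of -0.39 to 0.21, and on the other KO 24 h alone lay within the WT range of -0.43 to 0.21, at 0.00. It is not known whether the 2 Sirt6 probes lie in the deleted part. The responses, genotype differences and some of the counts below are also given with both arrays left out, a choice made after seeing the data, which leaves no interaction at 24 h. In that setting the 24 h responses and counts of every gene rest on 1 treated array, WT 24 h. They are then not a mean over the genotypes. No cell type is labelled. Fibroblast markers (12 of 12 tested) had a median of 0.56 to 0.88 on the 10 arrays, and 11 of 14 leukocyte markers a median of -1.65 to -0.60. Endothelial markers (4 of 4) had a median of -0.29 to 0.313, and 4 of 5 epithelial markers one of -2.115 to -1.548. These are ratios to the reference RNA and do not identify the cell type. The KO arrays at 6 and 24 h were the highest for the leukocyte markers (-0.60 and -0.71, against -1.65 to -1.13 on the other 8), and their part in the results was not tested.

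Nfkb2, which encodes the p100 precursor of p52, was the 1 member whose treated and untreated arrays did not overlap across genotypes. In untreated samples it was at -0.38 and -0.34 in WT and at -0.24 and -0.50 in KO. After TNF-alpha it was at 0.50, 0.79 and 0.44 in WT and at 0.42, 0.73 and 0.48 in KO, at 1.5, 6 and 24 h in turn. All 6 treated arrays lay above all 4 untreated arrays, with the highest value at 6 h in both genotypes. Of the 14365 genes 74 (0.515%) showed this separation. Without the 2 doubted arrays Nfkb2 still showed it, as did 400 genes (2.78%) in all. Nfkb2 is on chromosome 19 (chr19:46300994-46312400, GRCm38.p6). The plot of values by array shows the gap between -0.24 and 0.42 that no array fills.

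**Figure D1:**
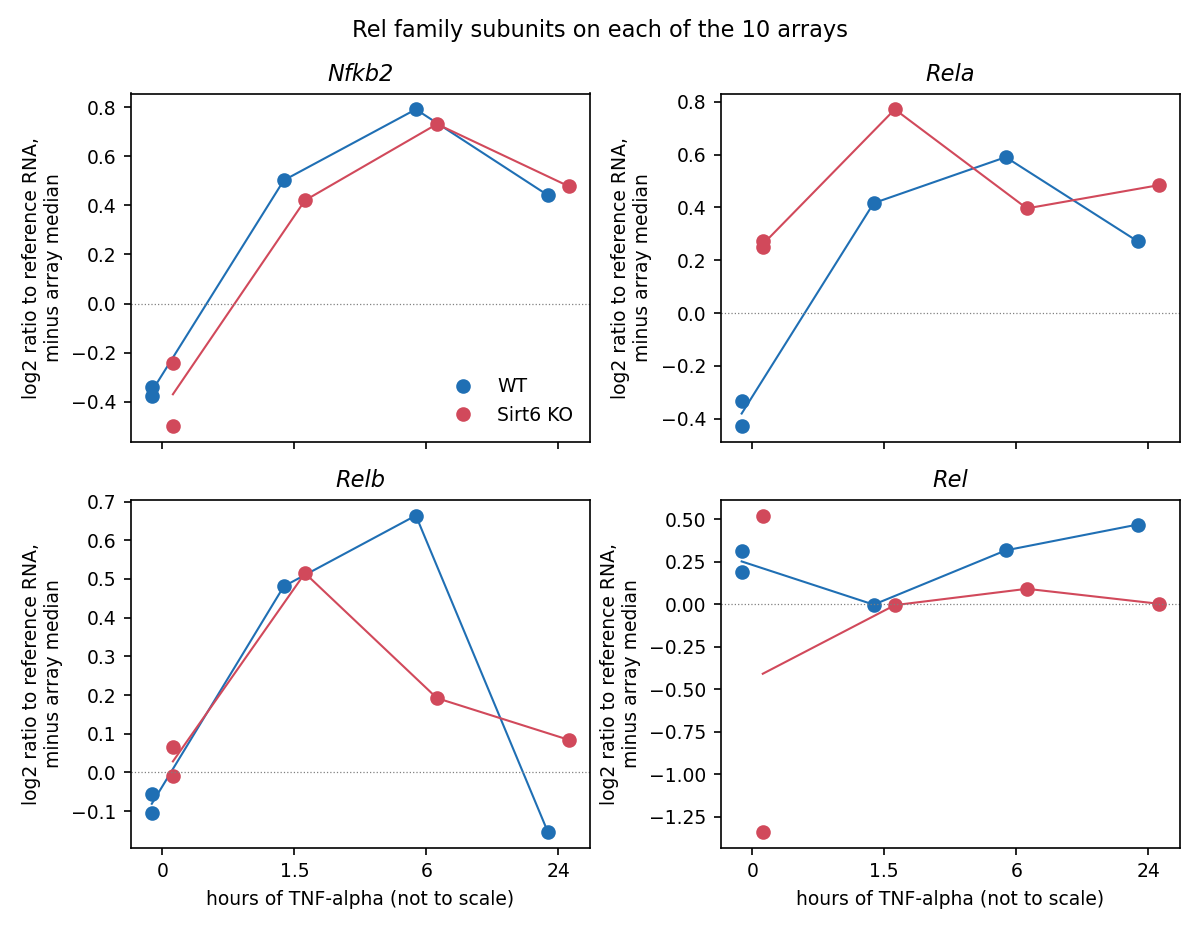
Log2 ratio to the reference RNA minus the array median (y axis, range differs by panel) of Nfkb2, Rela, Relb and Rel at 0, 1.5, 6 and 24 h of TNF-alpha (x axis, not to scale); each point is 1 array, blue WT and red Sirt6 KO, and lines join the time means. The 6 treated arrays of Nfkb2 sit between 0.42 and 0.79, all above the untreated ones, and 1 KO array of Rel at 0 h sits at -1.34.

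In the mean over the genotypes Nfkb2 was 1.77-fold above 0 h at 1.5 h (log2 0.82, n = 2 treated and 4 untreated arrays), 2.18-fold at 6 h (log2 1.12) and 1.77-fold at 24 h (log2 0.82), each with an SE of 0.17. The mean of the 3 times was log2 0.92 (SE 0.12, 95% interval 0.645 to 1.203). These 4 values share the same untreated arrays, and treated arrays of the genotypes were averaged. The 2 treated arrays at each time are 1 WT and 1 KO array. For every member the additive model counts a difference between the genotype responses as scatter, pooled over the times. By limma none passed an adjusted p under 0.05 over all genes. The adjusted p was 0.997, 0.332 and 0.515 at the 3 times and 0.0878 for their mean, with 0.0816 to 0.740 over all alternatives tried for that mean. Ordered by p, Nfkb2 was the 10th, 4th and 22nd of 14365 genes at the 3 times and the 5th in the mean. Without the 2 doubted arrays the mean of the times was 0.87 (SE 0.14, adjusted p = 0.157). The responses were then 0.78, 1.08 and 0.76 at 1.5, 6 and 24 h, with KO minus WT at 0.12 at 0 h. The 24 h value here rests on the WT 24 h array alone.

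The time points of Nfkb2 could not be ordered beyond their spread. From the highest, its groups ran WT 6 h, KO 6 h, WT 1.5 h, KO 24 h, WT 24 h, KO 1.5 h, WT 0 h and KO 0 h. The gap between KO 1.5 h and WT 0 h (0.78) exceeded the 95% least difference of the fit with 1 mean per group (0.63). No other neighbouring gap did, and the largest of them was 0.23. The order was taken from these same values and the least difference is not adjusted for the number of gaps or genes. The gaps are therefore a description and not a passed test. WT and KO were also close at each time, with a KO minus WT difference of -0.01 at 0 h (SE 0.20) and of -0.08, -0.06 and 0.04 at 1.5, 6 and 24 h (SE 0.29 for all 3). The interval of the 0 h difference ran from -0.52 to 0.50 and that of the mean interaction from -0.68 to 0.64, so differences of that size cannot be seen here.

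Rela encodes the p65 subunit, the main transactivating partner in the canonical dimer. It lay at -0.43 and -0.33 on the untreated WT arrays and at 0.27 and 0.25 on the untreated KO arrays. After TNF-alpha it was at 0.42, 0.59 and 0.27 in WT and at 0.77, 0.40 and 0.48 in KO at 1.5, 6 and 24 h. Within each genotype all 3 treated arrays were above both untreated ones, as for 164 genes (1.14%), but the lowest treated WT array (0.271) and the highest untreated KO array (0.272) were level. Rela is on chromosome 19 (chr19:5637442-5648134).

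The mean response of Rela was log2 0.65 (1.57-fold) at 1.5 h, 0.55 at 6 h and 0.44 at 24 h, with an SE of 0.21, and 0.55 (SE 0.16) over the 3 times. The adjusted p was 0.997, 0.999, 0.724 and 0.975 by limma, so none passed. The 6 h value came mostly from WT, where it was 0.97 against 0.14 in KO (SE 0.23 for both). The mean was 0.22 without the WT 6 h array and 0.88 without the KO 6 h array. Without the 2 doubted arrays the responses were 0.70, 0.60 and 0.54 at the 3 times and 0.62 in their mean (SE 0.19, adjusted p = 0.436).

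In untreated samples Rela was 1.56-fold higher in KO than in WT (log2 0.64, SE 0.19, n = 2 per genotype, 95% interval 0.17 to 1.12). In the order of the Rela groups no other neighbouring gap exceeded its least difference, which is 0.476 for this one and is not adjusted. The unadjusted p was 0.0175 and the adjusted p 0.223 by limma over all genes, so the difference did not pass, and 0 (0%) of all genes passed in this comparison. Leaving out both doubted arrays, it was 0.65, with 1 untreated KO array left and the spread taken from the WT 0 h pair alone. An unadjusted p under 0.05 was reached by 17.2% of genes in this comparison, and both KO arrays were above both WT arrays for 24%. After TNF-alpha KO minus WT was 0.36, -0.19 and 0.21 at 1.5, 6 and 24 h (SE 0.27 for all 3, 1 array per genotype). Spots near Rela in row order moved in the same direction, with a running median over the surrounding spots of -0.23 in WT and 0.17 in KO at 0 h. With this local median removed the 0 h difference was 0.24 (adjusted p = 0.480, and 0.0605 to 0.954 over all alternatives). By the image numbers that the labels give, the WT arrays come first, so genotype and the order of the arrays cannot be told apart.

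Relb, the subunit that pairs mainly with p52 in the alternative pathway, had positive differences from 0 h at 1.5 and 6 h and one near 0 at 24 h, none of which passed the test. It was at -0.10 and -0.06 in untreated WT and at -0.01 and 0.07 in untreated KO. After TNF-alpha the values were 0.48, 0.66 and -0.15 in WT and 0.52, 0.19 and 0.08 in KO. The arrays at 1.5 and 6 h were above all 4 untreated ones, as for 4.75% and 4.14% of genes at each time, and those at 24 h, at -0.15 and 0.08, lay just below and just above the untreated range. Relb is on chromosome 7 (chr7:19606217-19629438).

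The mean response of Relb was log2 0.52 (1.44-fold) at 1.5 h, 0.45 at 6 h and -0.009 at 24 h (SE 0.19 for all 3), with adjusted p of 0.997, 0.999 and 0.996 by limma. WT gave 0.75 at 6 h and KO 0.16 (SE 0.23 for both), and the mean was 0.16 without the WT 6 h array and 0.75 without the KO 6 h array. The difference of these responses, the interaction at 6 h, was -0.58 (SE 0.33, interval -1.40 to 0.24, adjusted p = 0.478). No neighbouring gap in the order of the Relb groups exceeded the spread, and the times were not tested against each other. Without the 2 doubted arrays the responses were 0.57, 0.50 and -0.13 (adjusted p from 0.623 to 0.932), and the interaction at 6 h was -0.54.

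Rel encodes c-Rel, a subunit best known from lymphoid and myeloid cells. It lay at 0.31 and 0.19 in untreated WT and at 0.52 and -1.34 in untreated KO. After TNF-alpha it was at -0.003, 0.32 and 0.47 in WT and at -0.01, 0.09 and 0.002 in KO. The pair of untreated KO arrays differed by 1.86, a gap larger than that of all but 1.82% of genes, and the low array is KO 0 h array b. The other 9 arrays lay between -0.01 and 0.52, and treated and untreated arrays overlapped. Rel is on chromosome 11 (chr11:23736847-23770969).

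The sign of the Rel response turned on that array. The mean response was log2 0.07, 0.28 and 0.31 at 1.5, 6 and 24 h (SE 0.43 for all 3), and without KO 0 h array b these were -0.33, -0.12 and -0.09. KO minus WT at 0 h was -0.66 (SE 0.60, adjusted p = 0.589). It was -1.59 without KO 0 h array a and 0.27 without array b. Either fit has 1 untreated KO array and takes its spread from the WT 0 h pair alone, so no p is given. Among the gaps between neighbouring groups of Rel none exceeded the spread, whose moderated SD was 0.60 against 0.19 to 0.20 for the other members.

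**Figure D2:**
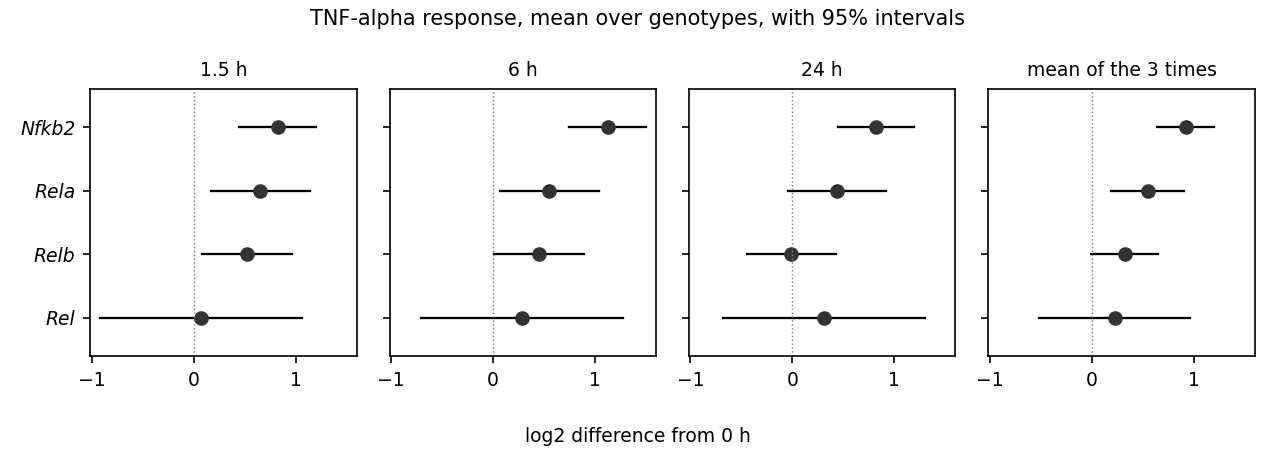
Log2 difference from 0 h in the mean over the genotypes (x axis) for Nfkb2, Rela, Relb and Rel at 1.5, 6 and 24 h and for the mean of the 3 times; points are estimates of the additive model and bars 95% intervals. The intervals of Nfkb2 lie above 0 in each panel, and those of Rel span 0 in each.

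Taking the family as a group, 4 of 4 members were positive at 1.5 h, as were 51.6% of all genes, 4 of 4 at 6 h (53.7% of all genes) and 3 of 4 at 24 h (55.6%). Their medians were 0.59, 0.50 and 0.38, against 0.01, 0.02 and 0.04 over all genes. By limma 0 of 4 passed an adjusted p under 0.05 in any comparison. Over all genes 1 (0.00696%) passed at 1.5 h, 2 (0.0139%) at 6 h, 2 (0.0139%) at 24 h and 2 (0.0139%) in the mean of the times. At an unadjusted p under 0.05, 3 members were higher at 1.5 h, where 175 genes (1.22%) were. At 6 h 3 were, against 1.22% of genes, at 24 h 1, against 3.88%, and in the mean of the times 2, against 2.15%. The plot of all genes places Nfkb2 69th and Rela 316th from the highest of 14365 in the mean of the times, Relb 1134th and Rel 2310th. Without the 2 doubted arrays 3 of 4 members were positive at each time, against 6845, 7295 and 7415 of the 14365 genes. Rel was then at -0.352 at 1.5 h and -0.145 at 6 h. In that setting 3, 3, 1 and 2 members were higher at an unadjusted p under 0.05, against 3.63%, 2.29%, 3.72% and 4.31% of genes, and 0 passed the adjusted test. The members were chosen with earlier results of these data known, so these counts are a description of the family.

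**Figure D3:**
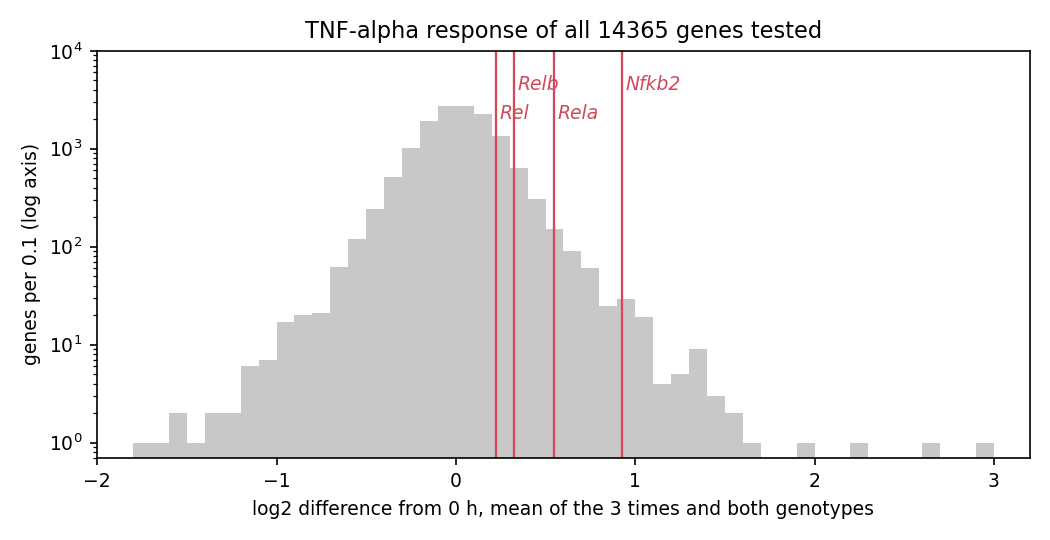
Number of genes per 0.1 (y axis, log scale) by log2 difference from 0 h in the mean of the 3 times and both genotypes (x axis), grey bars for all 14365 genes and red lines for the 4 members. The lines stand at 0.22 for Rel, 0.32 for Relb, 0.55 for Rela and 0.92 for Nfkb2, where 95% of all genes lie below 0.40.

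Whether the family responded differently in KO was tested by the interaction, the KO response minus the WT response. By limma 0 of 4 members passed at any time, with 0, 1 and 0 at an unadjusted p under 0.05, against 3.72%, 13.9% and 13.1% of all genes. Over all genes 0 (0%), 1 (0.00696%) and 4 (0.0278%) passed at 1.5, 6 and 24 h. The 1 member was Rela at 6 h, at -0.83 (SE 0.33, interval -1.66 to -0.01, unadjusted p = 0.048, adjusted p = 0.356). This value rests on 1 treated array per genotype and on the higher untreated KO level of Rela described above, and it was -0.38 with the local median removed (adjusted p = 0.5, and 0.101 to 0.918 over all alternatives). For Nfkb2 the interactions were -0.07, -0.05 and 0.05 (SE 0.35 each), with intervals that lay within -0.95 to 0.93. The 6 h interaction of Rel was 1.36 without KO 0 h array a and -0.50 without array b. Both fits take their spread from the WT 0 h pair alone, so no p is given. Leaving out both doubted arrays, Rela was at -0.85 in the 6 h interaction, with the same limit. In the genotype average, over all times, Rela was at 0.33 (SE 0.16), Relb at 0.004 (SE 0.14), Rel at -0.40 (SE 0.32) and Nfkb2 at -0.03 (SE 0.12). By limma none passed (adjusted p from 0.534 to 0.994), as for 0 (0%) of all genes, with 0 members and 9.68% of genes at an unadjusted p under 0.05. With both doubted arrays left out these averages were 0.31, -0.10, 0.04 and 0.004.

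**Figure D4:**
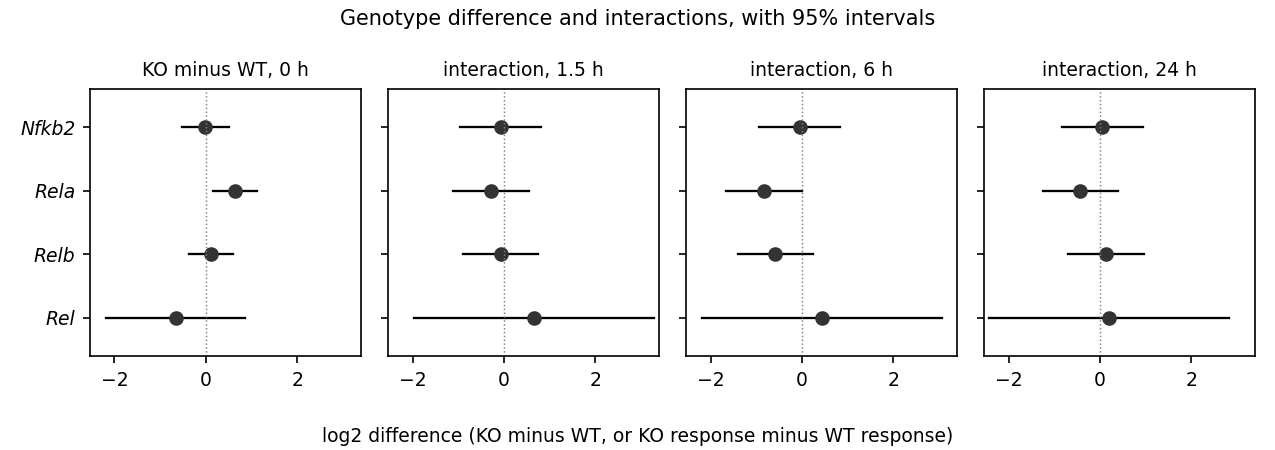
Log2 difference of KO minus WT at 0 h and of the KO minus the WT response at 1.5, 6 and 24 h (x axis) for Nfkb2, Rela, Relb and Rel; points are estimates of the model with 1 mean per group and bars 95% intervals. Rela lies at 0.64 at 0 h and at -0.83 in the interaction at 6 h, and the intervals of Rel are the widest.

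For the proteins that hold, activate or restrain these subunits, the RNA of 33 genes was listed, of which 29 were tested. The proteins themselves were not measured. In the TNF responses 0 of 29 passed over all genes. At an unadjusted p under 0.05, 6 were higher and 0 lower at 1.5 h, 5 and 1 at 6 h, and 7 and 0 at 24 h, against 1.22% and 2.51%, 1.22% and 1.66%, and 3.88% and 3.2% of all genes. With both doubted arrays left out these counts were 6 and 0, 5 and 1, and 6 and 3, and 0 of 29 passed. The shares of all genes were then 3.63% and 4.25%, 2.29% and 3.14%, and 3.72% and 5.08%. In the mean of the times the median was 0.38 for the IkB list, in which Nkrf was counted. It was 0.17 for the list of the IKK complex and kinases, in which Tab1, Tab2 and Tab3 were counted. It was 0.01 for the adaptors and feedback genes, against 0.02 over all genes. Nfkbia, which encodes IkB-alpha and retains RelA in the cytoplasm, lay between -1.83 and -1.12 untreated and between -0.20 and 0.06 treated. Its mean response was 1.40, 1.32 and 1.30 at 1.5, 6 and 24 h (SE 0.22 for all 3). Bcl3, a nuclear IkB protein that binds p50 and p52 dimers, lay between -1.22 and -0.81 untreated and between -0.22 and 0.96 treated. Its mean response was 1.51, 0.89 and 0.95 (SE 0.20 for all 3). Of the 29 genes 5 had all treated above all untreated arrays, Nfkbia, Bcl3, Nfkbiz, Ikbke and Tnfaip3, a pattern of 0.515% of all genes. Without the 2 doubted arrays it held for these and for Nfkbie, Tbk1 and Birc3, and for 2.78% of all genes. Nfkbia and Bcl3 both had an adjusted p of 0.0878 in the mean of the times. With both doubted arrays left out that mean was 1.17 for Nfkbia (SE 0.16, adjusted p = 0.0867) and 1.097 for Bcl3 (SE 0.18, adjusted p = 0.163).

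The genes whose values over the 10 arrays were most like each member were listed by Pearson correlation among 14136 genes, as a description. Genes whose symbol is a clone or model name were not compared. All points share the centring and the reference RNA. For Nfkb2 these were the chemokines Cx3cl1 (r = 0.95) and Ccl2 (0.95) and the inhibitor Nfkbia (0.94). For Rela they were Lrpprc (0.96), Stk17b (0.94) and Wdr37 (0.93), and for Relb Pde1a (0.90), Nudt12 (0.90) and Parp12 (0.87). For Rel they were Gp2 (0.97), Gpr45 (0.96) and Celf6 (0.96), and without KO 0 h array b, chosen after seeing the data, these were 0.81, 0.70 and 0.77. Without that array the other 9 genes had r between 0.87 and 0.96. The rank correlations were 0.88, 0.64 and 0.72 for the genes of Nfkb2 and 0.67 to 0.93 for the others.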

How the data were processed

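Log ratios of 10 two-colour arrays were used, as deposited by the authors and read as log2 of Cy5 (sample) over Cy3 (universal mouse reference RNA), per the labels for the dyes. Their normalization by the authors is not given in the sources. Probes were named by the platform table, which gave 1 symbol for 22204 of 38784 spots. All 22204 gene identifiers were found in RefSeq and 0 symbols changed. Spots lacking a value on any array were dropped, leaving 36113. Of these the 21197 with 1 symbol were averaged per gene (14365 genes) and centred per array on the gene median. Precision is limited by how few arrays there are.

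Models were fitted with limma 3.58.1 under R 4.3.3 (lmFit, eBayes, two-sided tests), with Benjamini-Hochberg adjustment over all genes and a threshold of 0.05. TNF responses and the genotype average were taken from additive terms for genotype and time (5 residual df). Genotype at 0 h, interactions and values within a genotype came from 1 mean per group (2 residual df), where treated arrays are assumed to vary like the 0 h pairs. The code was tested on simulated data. The members, lists and tests were chosen with earlier results of these data known. Singled out besides the 4 members were Sirt6, Nfkbia and Bcl3, any list gene past the threshold (there was none) and the 3 genes most like each member. List genes with all treated above all untreated arrays, with or without the 2 doubted arrays, were named too. Letters a and b gave the 0 h arrays no shared deviation (r = -0.005 over genes), so they were not used as pairs. Leaving out the 2 doubted arrays together was chosen after seeing the data.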

Additional observations from a re-analysis of the deposited data

How the results depend on the processing

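Nfkb2 kept a positive TNF response in every alternative, at 0.78 to 0.92 at 1.5 h, 1.08 to 1.30 at 6 h, 0.75 to 0.88 at 24 h and 0.87 to 1.00 in the mean, and passed in none. Rela was positive in the mean of the times in each as well. The letters did not pair the samples. With the replicate block 1 gene passed at 6 h, 1 at 24 h, 1 in the mean of the times and 0 in the interaction at 24 h, and no member's call changed. Other values turned sign, most of them near 0 but not those of Rel or the 24 h interaction of Rela (-0.428), and the cause was not tested. With arrays scaled to equal spread Nfkb2 was at 0.163 at 0 h (KO minus WT), 0.043 in the genotype average and -0.107 in the 24 h interaction, Rel at -0.035 at 1.5 h, and Relb at 0.01 at 24 h and -0.019 in the genotype average. Quantile normalization gave Nfkb2 0.189 at 0 h, 0.072 in the genotype average, -0.166 in the 24 h and 0.082 in the 6 h interaction, Rel -0.068 at 1.5 h, and Relb 0.015 at 24 h and -0.013 in the genotype average. With the running median over spots removed Nfkb2 was at 0.26 in the 6 h and 0.208 in the mean interaction, Rel at -0.39 and Rela at 0.145 in the 24 h interaction, and Relb at 0.167 at 24 h, -0.128 at 0 h, -0.001 in the genotype average, 0.307 in the 1.5 h and 0.212 in the mean interaction. Without centring Nfkb2 was at 0.215 in the 6 h and 0.124 in the mean interaction, and Relb at -0.047 at 0 h and -0.065 in the genotype average. With 1 mean per group Relb was at -0.023 in the genotype average, and with probes on at least 8 arrays Nfkb2 was at 0.002 at 0 h. Without KO 0 h array b and the array labelled KO at 24 h Nfkb2 was at 0.117 at 0 h and 0.004 in the genotype average, Relb at -0.103 there, and Rel at -0.352, -0.145 and -0.119 at 1.5 h, 6 h and in the mean, 0.27 at 0 h, 0.039 in the genotype average, and -0.272 and -0.496 in the 1.5 and 6 h interactions.

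Counts of all genes past the threshold also moved, in the order 1.5 h, 6 h, 24 h, mean of the times, from 1, 2, 2 and 2. Equal spread gave 2 at 1.5 h, 5 in the mean, 2 in the genotype average, and 1 and 48 in the 1.5 and 24 h interactions. Quantile normalization gave 4 in the mean, 2 in the genotype average and 27 in the 24 h interaction. The running median removed gave 3 at 1.5 h, 1 at 6 h, 6 in the mean and 2 in the genotype average. Each probe alone gave 1 at 6 h, 1 at 24 h, and 2 and 0 in the 6 and 24 h interactions. Genes of above-median SD, among which Relb was not, gave 1 at 6 h, 1 at 24 h, 5 in the mean and 1 in the 24 h interaction. One mean per group gave 0, 1, 5 and 1. Without centring 1 passed at 6 h, 1 at 24 h, 1 at 0 h, and 3 and 37 in the 6 and 24 h interactions. Without the 2 doubted arrays 0, 0, 119 and 11 passed, 472 at 0 h, and 42 and 768 in the 1.5 and 6 h interactions.

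Leaving out 1 array at a time gave 0 to 4, 0 to 9, 1 to 72 and 1 to 9 genes in the TNF responses, 0 to 1 in the genotype average and 0 to 3264 at 0 h. In the interactions it gave 0 to 363, 0 to 2581 and 0 to 2004 at the 3 times and 0 to 2378 in the mean. The high counts at 24 h and in the mean came when the KO 24 h array was left out, so that the 24 h response rested on the WT 24 h array alone. Those at 0 h and in the interactions came when either KO 0 h array was left out, the highest without array a. The spread then comes from the WT 0 h pair alone, so these counts do not measure the scatter among KO arrays. The calls of Rel at 0 h and in the 6 h and mean interactions, made without array a, rest on that spread. Rel ranged from -0.333 to 0.383, -0.125 to 0.59 and -0.093 to 0.622 at the 3 times, -0.184 to 0.532 in the mean and -1.591 to 0.27 at 0 h. Its interactions ranged from -0.272 to 1.589, -0.496 to 1.365, -0.736 to 1.125 and, in the mean, -0.501 to 1.36. Relb ranged from -0.155 to 0.138 at 24 h and from -0.055 to 0.123 in the genotype average. Nfkb2 ranged from -0.068 to 0.012 in the genotype average and from -0.14 to 0.117 at 0 h. Its interactions ranged from -0.198 to 0.059, -0.177 to 0.08, -0.081 to 0.176 and, in the mean, -0.152 to 0.105. Signal over background was not used here, so the precision of dim spots is unknown.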
